A study of Homo sapiens with 8 samples.

Results

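The genes described here are 56 cyclins, cyclin-dependent kinases (CDKs) and cell-cycle regulators, out of 20046 protein-coding genes in GENCODE release 44, and the measurement is where the RNA-binding protein IGF2BP1 was crosslinked to their RNAs. They were taken from a fixed list of names, which was chosen with earlier results of these data known. A peak was counted for a gene when it lay within that gene on the same strand. The cells were H1299, a human non-small cell lung carcinoma line, labelled wild type and used as a single line. They were treated for 24 h with 1.5 µM AVJ16, a small molecule that the study describes as an inhibitor of IGF2BP1, or with 0.01% DMSO, the solvent. Binding was read by eCLIP, in which protein and RNA are joined with ultraviolet light, the protein is pulled down with an antibody and the RNA that comes with it is sequenced beside a size-matched input that was not pulled down. Each treatment had 2 immunoprecipitated and 2 input libraries, so 8 libraries in all. The 2 replicates of a treatment had been merged into 1 list of peaks, with 22311 peaks for DMSO and 22123 for AVJ16. There is therefore no value per replicate, and no difference between the lists below has an error between replicates or a test. The number of reads behind a peak is unknown, and the cell identity could not be checked because the lists hold peaks and no expression levels.

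Cells pass through G1, DNA synthesis in S phase, G2 and mitosis. D-type cyclins with CDK4 or CDK6 open the way out of G1 by phosphorylating the retinoblastoma protein and its relatives, which otherwise hold back the E2F transcription factors. Cyclin E and cyclin A with CDK2 act around the start and during S phase, and cyclin B with CDK1 drives mitosis, while the CDK inhibitors and WEE1 act as brakes. Another branch of the family, such as cyclin T with CDK9 and cyclin C with CDK8, works in transcription and not in division. IGF2BP1 binds mRNAs, largely in their 3′ untranslated regions (3′UTRs), and is known for protecting its targets from decay and from microRNAs.

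The sequences under the most enriched DMSO peaks of 7 members are printed below. The study states that sequences from crosslinked RNA need not be the site that the protein recognises. Each is the middle of its peak on GRCh38 (hg38), at most 30 nt, written 5′ to 3′ as RNA, with every CAU in capitals because that trinucleotide has been described in IGF2BP1 sites. These 7 had the highest DMSO values of all members.
CCNG1, chr5:163444837-163444854, plus strand: auucuuaacuuuuguaaa
CDKN2C, chr1:50974357-50974386, plus strand: aguucuguCAUauguuaagcagcuaaauuu
CDK6, chr7:92613971-92614000, minus strand: auauauugcuacCAUuguauaacuaauaac
CDKN1A, chr6:36686796-36686825, plus strand: ggguccCAUgugguggcacaggcccccuug
CCND2, chr12:4301168-4301197, plus strand: gcugaCAUuccCAUcacaaCAUuccucaga
RB1, chr13:48480172-48480201, plus strand: uaauaucuucagcucuuuuuguggauauaa
AURKA, chr20:56369787-56369816, minus strand: ucugcccugaccccgaucaguuaaggagcu
All 7 lie in 3′UTRs. The CCND2 window holds 3 CAU and those of CDKN2C, CDK6 and CDKN1A hold 1 each, whereas the windows of CCNG1, RB1 and AURKA hold none.

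IGF2BP1 was found on 32 of the 56 members with DMSO (57.1%, Wilson 95% interval 44.1 to 69.2%) and on 32 with AVJ16, against 25.8% of all protein-coding genes with DMSO and 23.2% with AVJ16. Whether these shares differ was not tested. The members were chosen with earlier results of these data known, so their bound share is not independent of the data. Of 93 further cell-cycle genes outside the list, 39.8% were bound with DMSO and 32.3% with AVJ16. Members with a peak also had longer 3′UTRs. The median canonical 3′UTR was 1473 nt in the 36 members with a peak in either list and 785.5 nt in the 20 without. Over all protein-coding genes these medians were 1944 nt and 721 nt. Across the 56 members, the length of the 3′UTR and the number of DMSO peaks had a Spearman's rho of 0.376, given as a description only, since all genes come from the same pooled libraries. RNA abundance is not part of the lists, so a gene without a peak cannot be told apart from a gene with little RNA in these cells.

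The members shared between the lists numbered 28. They made up 87.5% of the 32 members bound with DMSO, beside 79.1% of all genes bound with DMSO that were also bound with AVJ16. They made up the same 87.5% of the 32 bound with AVJ16, beside 87.9% of all such genes. Members with a DMSO peak only were CDC25A, CDC25B, CDK12 and CDK17, and members with an AVJ16 peak only were CCNG2, CCNT1, E2F8 and PLK1. None of these 8 had more than 2 peaks. Their most enriched peaks lay between 3.19 and 3.75 on the log2 scale of enrichment over input, in lists whose lowest value is 3.00.

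The members held 168 peaks with DMSO and 150 with AVJ16. Of these, 120 and 107 lay in 3′UTRs (71.4 and 71.3%, beside 74.6 and 75.01% of all peaks), and 40 and 39 touched coding sequence (23.8 and 26.0%, beside 17.3 and 20.3% of all peaks). Introns held 8 and 4, and no 5′UTR held any. The median enrichment was 3.63 for member peaks and 3.63 for all peaks with DMSO, and 3.58 and 3.61 with AVJ16 (log2). CDK6, CCND2 and CCNG1 alone carried 55 peaks with DMSO (32.7% of those of the members) and 62 with AVJ16 (41.3%).

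**Figure D1:**
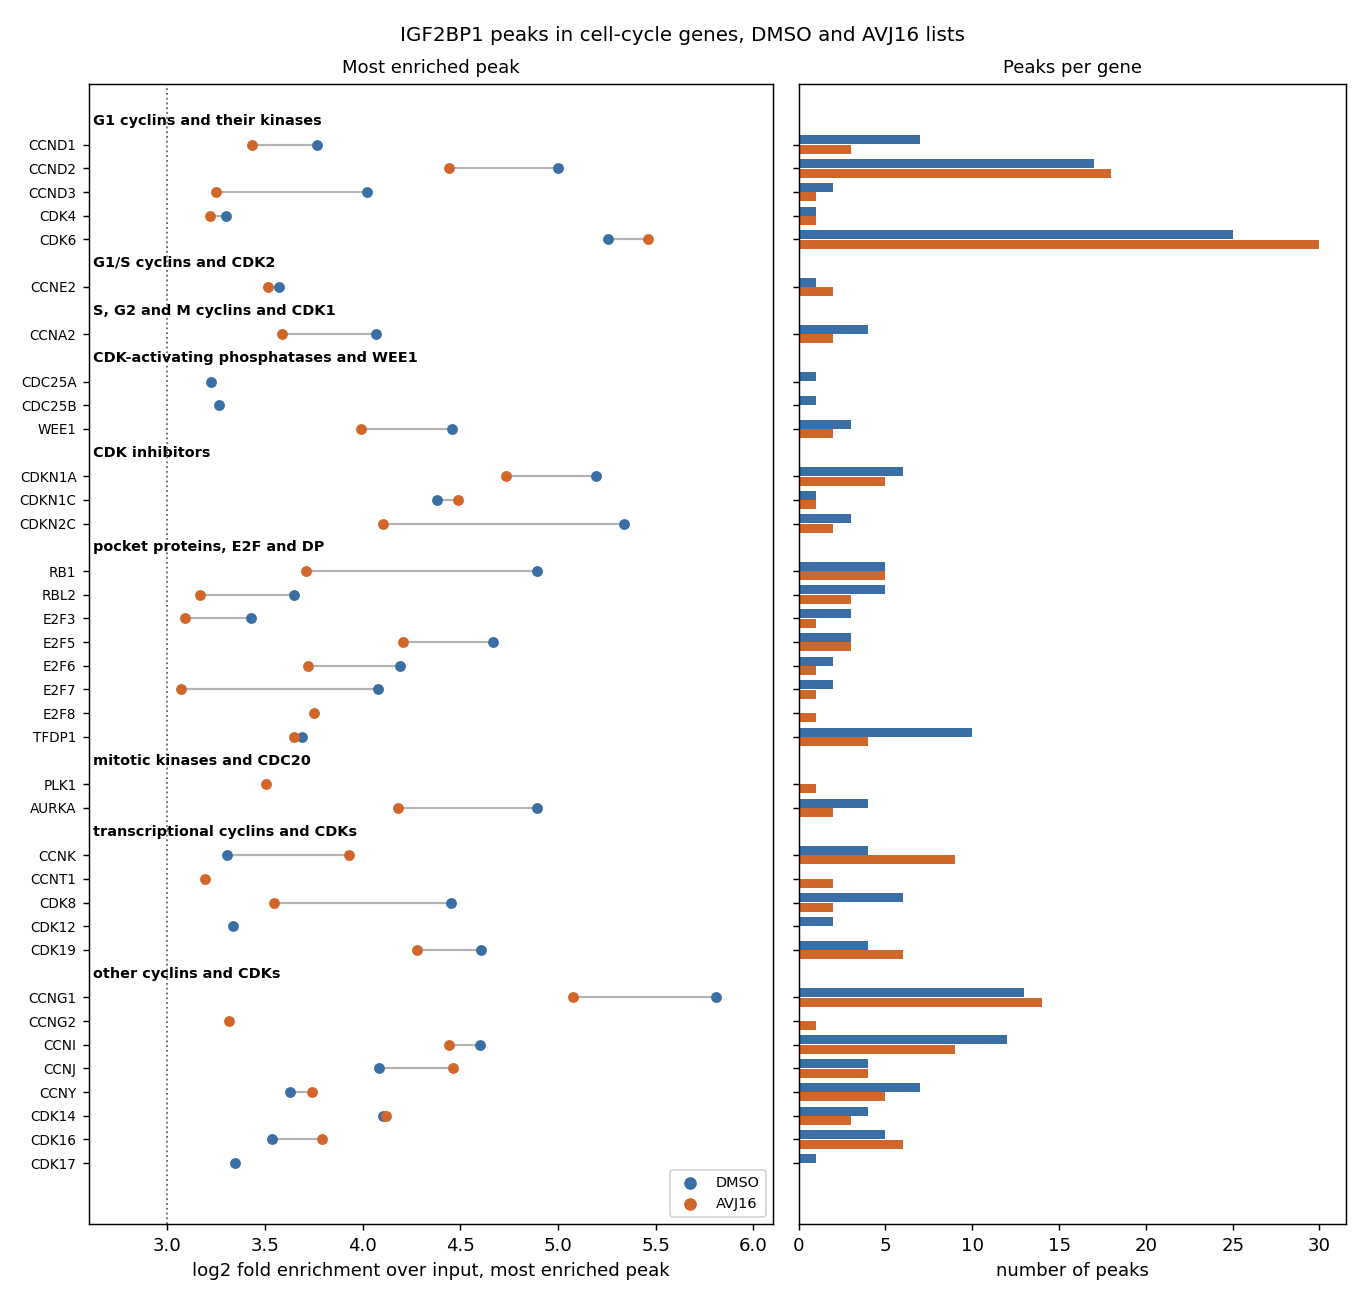
Each row is a member with a peak in either list, grouped by role; the left panel gives the log2 fold enrichment over input of its most enriched peak (blue, DMSO; orange, AVJ16; dotted line, the lowest value listed, 3) and the right panel its number of peaks. CCNG1 had the highest DMSO value (5.81) and CDK6 the highest AVJ16 value (5.46) and the most peaks (25 and 30).

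The cyclins and kinases of G1 held the most peaks of the roles. All 5 members were bound in both lists, beside 25.8% of all protein-coding genes with DMSO and 23.2% with AVJ16. They held 52 DMSO and 53 AVJ16 peaks. CDK6, which phosphorylates the retinoblastoma protein together with CDK4, held 25 and 30 of these peaks, all in a 3′UTR of 10222 nt. DMSO peaks covered 1481 nt of it (14.5%) and AVJ16 peaks 1416 nt (13.9%). CCND2, encoding cyclin D2, held 17 and 18 peaks, also all in the 3′UTR (19.3 and 22.2% covered). Another annotated gene, ENSG00000285901, overlaps CCND2 on the same strand over all of these peaks, so they cannot be assigned to CCND2 alone. CCND1, the cyclin D1 gene, had 7 DMSO and 3 AVJ16 peaks, CCND3 had 2 and 1, and CDK4 had 1 and 1. The single CDK4 peak reached 3.30 with DMSO and 3.22 with AVJ16, and the best peaks of its sister kinase CDK6 5.26 and 5.46 (log2 fold enrichment).

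Along CDK6 the peaks fell into runs separated by more than 500 nt. The run nearest the stop codon (chr7:92612958-92614075, minus strand) held 7 DMSO and 11 AVJ16 peaks, and its best peak was 5.26 with DMSO and 4.52 with AVJ16. The run nearest the 3′ end (chr7:92605668-92606521) held 8 and 12 peaks, with best values of 5.23 and 5.46. These 2 outermost runs therefore carried the most enriched peaks. They did not reach the ends of the 3′UTR, since the peaks spanned 1068 to 9475 nt of its 10222 nt. Their best values were nearly equal with DMSO, while with AVJ16 the run nearest the 3′ end had the higher one. Between them, a run at chr7:92609820-92610610 held 5 DMSO and 3 AVJ16 peaks with best values of 4.05 and 4.15, and a run at chr7:92607839-92608253 held 5 and 3 with best values of 4.66 and 3.80. The highest −log10 p of any CDK6 peak was 400, the upper limit of the scale, with DMSO and 76.2 with AVJ16.

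**Figure D2:**
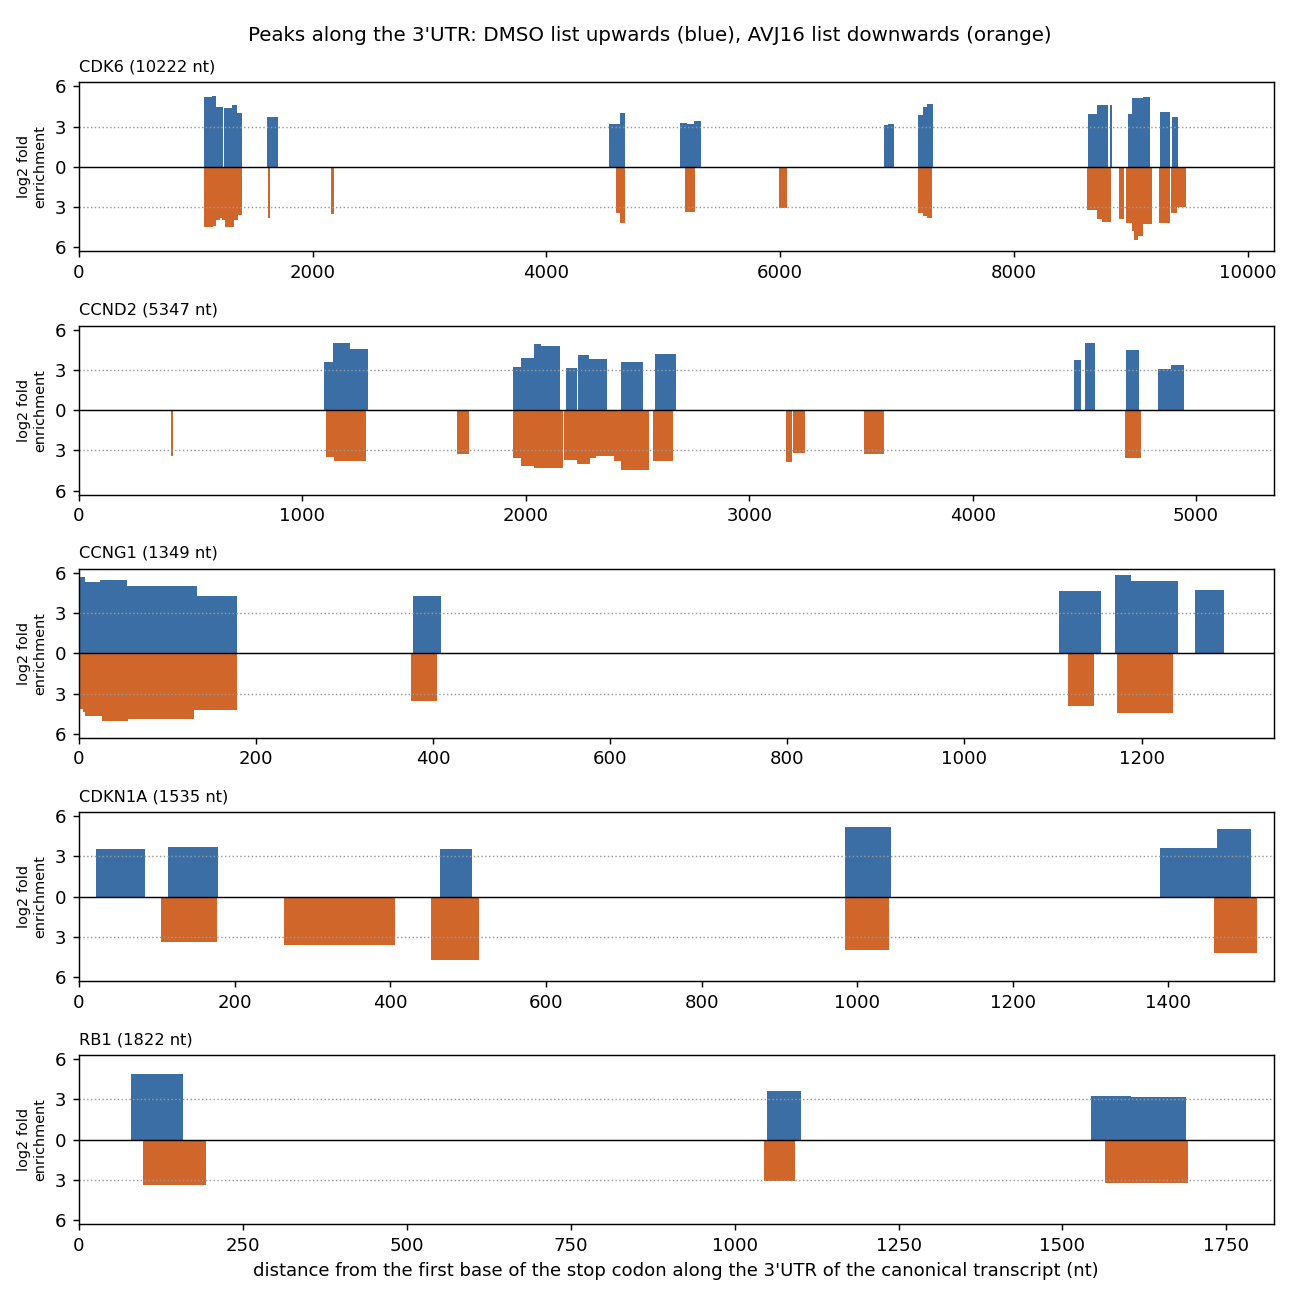
Peaks along the canonical 3′UTR of CDK6, CCND2, CCNG1, CDKN1A and RB1, in nt from the first base of the stop codon; bar height is log2 fold enrichment over input, upwards for DMSO and downwards for AVJ16, with dotted lines at the lowest value listed, 3. Most bars of a list face a bar of the other list, while the 2 CCND2 peaks at 4452 to 4547 nt with DMSO face none.

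In CCND2 the peaks gathered in the middle of the 3′UTR (chr12:4301102-4303610, plus strand, 12 DMSO and 16 AVJ16 peaks) and towards its 3′ end (chr12:4304458-4304950, 5 and 1). All 12 DMSO peaks of the middle run overlapped an AVJ16 peak, and 1 of the 5 at the 3′ end did. The most enriched member peak with DMSO that had no AVJ16 partner, at 4.999, was among the latter. In CCND1 the 5 DMSO peaks of the 3′UTR ran from 2009 to 2591 nt after the first base of the stop codon, in a 3′UTR of 3195 nt, and 3 of them had a partner.

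The cyclins and kinases of S phase, G2 and mitosis and the licensing factors comprised 15 members, of which 3 had a peak with DMSO (20%) and 4 with AVJ16 (26.7%). Over all protein-coding genes the shares were 25.8 and 23.2%, so most genes of any kind had no peak. Of CCNE1, CCNE2 and CDK2, which act at the entry to S phase, CCNE2 had 1 DMSO and 2 AVJ16 peaks and the others none. Of CCNA2, CCNB1, CCNB2, CCNF and CDK1, only CCNA2, encoding the cyclin of S phase and G2, had peaks. Its 4 DMSO peaks comprised 3 in coding sequence and 1 in the 3′UTR, and its most enriched peak was 4.07 with DMSO and 3.59 with AVJ16. The licensing factors CDC6 and CDT1, which load the replicative helicase, had no peak in either list. AURKA, the kinase of centrosome maturation, had 4 and 2 peaks in its 3′UTR, with best values of 4.89 and 4.18. PLK1, another mitotic kinase, had 1 AVJ16 peak of 27 nt at 3.504, and AURKB, BUB1 and CDC20 had none. Among the regulators of CDK phosphorylation, WEE1, the kinase that inhibits CDK1, had 3 and 2 peaks with best values of 4.46 and 3.99. CDC25A and CDC25B, phosphatases that oppose it, had 1 DMSO peak each, at 3.23 and 3.26, and CDC25C had none.

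Of the CDK inhibitors, CDKN1A (p21), CDKN1C (p57) and CDKN2C (p18) were bound in both lists and CDKN1B (p27) in neither. CDKN2C has a 3′UTR of 367 nt, and its 3 DMSO peaks covered 77.1% of it and its 2 AVJ16 peaks 68.7%. Its best value was 5.34 with DMSO and 4.10 with AVJ16. CDKN1A had 6 and 5 peaks in a 3′UTR of 1535 nt, with best values of 5.19 and 4.73 at different sites. CDKN1C had 1 peak in each list, at 4.38 and 4.49, a difference of 0.11, with −log10 p values of 5.67 and 4.59.

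Of the 9 members that encode pocket proteins, E2F or DP factors, 7 were bound with DMSO (77.8%, beside 25.8% of all protein-coding genes) and 8 with AVJ16 (88.9%, beside 23.2%), with 30 and 19 peaks. The list does not hold the whole family. Among the genes outside it, the activators E2F1 and E2F2 had no peak in either list, E2F4 had 2 and 1, and TFDP2 had 8 and 5. RB1, the retinoblastoma gene, had 5 peaks in each list and RBL2 (p130) had 5 and 3, whereas RBL1 (p107) had none. E2F3, an activator of S-phase genes, had 3 and 1, E2F5 3 and 3, E2F6 2 and 1, E2F7 2 and 1 and E2F8 0 and 1. TFDP1, which encodes the partner subunit of E2F factors, had 10 DMSO and 4 AVJ16 peaks, but no DMSO peak overlapped an AVJ16 peak. Its 4 DMSO peaks of the 3′UTR, at 3.05 to 3.69, had no counterpart with AVJ16, and the rest (6 and 4) lay in introns. TFDP1 held all intron peaks of the members with AVJ16, and 6 of 8 with DMSO, the others being in CCND1.

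The cyclins and CDKs of transcription were bound in 4 of 10 members in each list. Of all protein-coding genes, 25.8% were bound with DMSO and 23.2% with AVJ16. CCNK, encoding the cyclin of CDK12 and CDK13, had 4 DMSO and 9 AVJ16 peaks, of which 2 and 5 touched coding sequence. CDK8 and CDK19, the kinases of the Mediator complex, had 6 and 2 peaks and 4 and 6 peaks. CDK12 had 2 DMSO peaks, CCNT1 2 AVJ16 peaks, and CCNL1, CCNT2, CDK7, CDK9 and CDK13 had none. Among the other cyclins and CDKs, 7 of 9 were bound in each list, beside the same 25.8 and 23.2% of all protein-coding genes. CCNG1, encoding cyclin G1, had 13 and 14 peaks, CCNI 12 and 9, CCNY 7 and 5, CDK16 5 and 6, CCNJ 4 and 4, CDK14 4 and 3, CDK17 1 and 0, CCNG2 0 and 1, and CDK5 none. CCNI was bound mainly in coding sequence, with 8 DMSO and 7 AVJ16 peaks there, and its highest value in both lists (4.599 and 4.443) belonged to a coding peak, at chr4:77055187-77055345 with DMSO.

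At peaks found in both lists, enrichment was more often lower than higher with AVJ16. A DMSO peak was taken as shared when at least 1 nt overlapped an AVJ16 peak on the same strand, and the difference is the AVJ16 value minus the DMSO value (log2 fold enrichment). Of the 168 DMSO member peaks 112 were shared (66.7%), beside 66.2% of all DMSO peaks, and of the 150 AVJ16 member peaks 114 were shared (76.0%), beside 70.8% of all AVJ16 peaks. Of the 112 shared peaks, 80 were lower (71.4%, beside 55.2% of all shared peaks). The enrichment was lower by more than 0.5 at 37 (33.0%, beside 20.1% of all shared peaks) and higher by more than 0.5 at 9 (8.04%, beside 12.6%). The median difference was −0.31 (95% interval −0.39 to −0.11), and −0.06 over all shared peaks. The interval treats peaks as independent, although peaks of 1 gene share a transcript and 25 of the 112 had an AVJ16 partner that another peak used as well. Of the 37 lower peaks, 10 were in CDK6, 7 in CCNG1 and 4 in CCND2. With these 3 members left out, a choice made after seeing the data, the median was −0.21 (95% interval −0.34 to −0.02). The shares of lower and higher peaks were not recomputed without them.

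**Figure D3:**
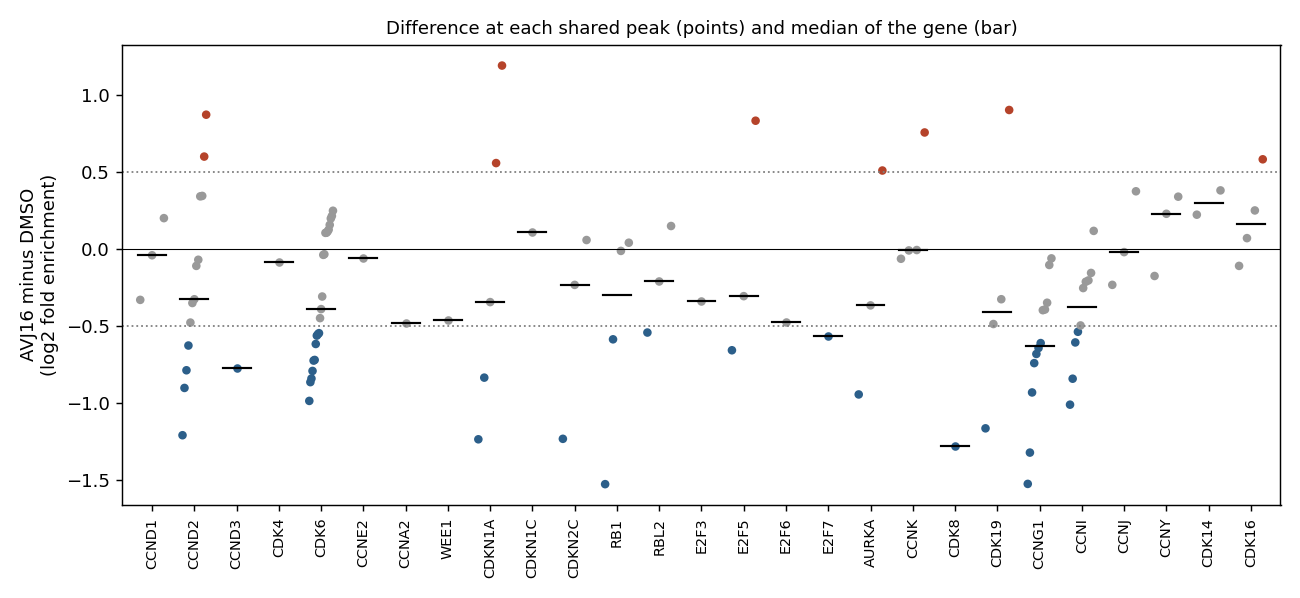
Each point is a shared DMSO peak, placed by gene and by how far the AVJ16 value lay above or below the DMSO value (log2 fold enrichment); bars are the medians of the genes and dotted lines mark a difference of 0.5 in either direction. All 12 points of CCNG1 lie below 0, while CDKN1A spans from −1.24 to 1.19.

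The difference moved with the enrichment of the DMSO peak, for members and for all shared peaks. For members with a DMSO value from 3 to 3.5 the median difference was 0.13 (n = 29), and for those of 4.5 or more it was −0.72 (n = 29, 95% interval −0.95 to −0.61). Over all shared peaks these medians were 0.17 and −0.49. Among members of 4.5 or more, 23 of 29 were lower by more than 0.5 (79.3%), beside 49.2% of all shared peaks in that range. Most of these 29 peaks lay in CDK6, CCNG1 and CCND2, so the share and its interval rest largely on these genes. The ranges were set by the DMSO value, which is also subtracted in the difference. A range and its median difference are therefore not independent. Because nothing under 3 is listed, a peak below 3.5 with DMSO cannot be listed as lower by more than 0.5. In the same way, the peaks without a partner were the weaker ones, with a median of 3.35 against 3.96 for shared member peaks with DMSO, and of 3.28 against 3.76 with AVJ16. Over all peaks these medians were 3.37 against 3.80 with DMSO and 3.35 against 3.73 with AVJ16.

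**Figure D4:**
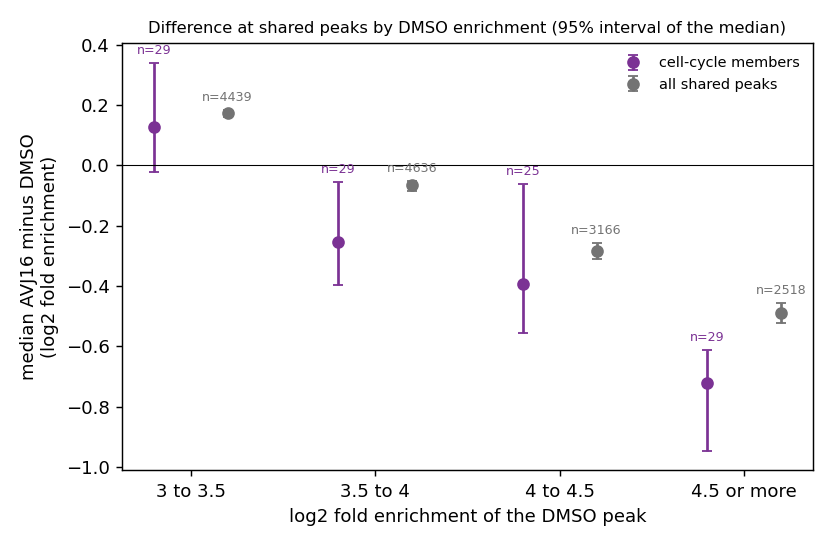
Median AVJ16 minus DMSO difference (log2 fold enrichment) at shared peaks in 4 ranges of DMSO enrichment, for members (purple) and for all shared peaks (grey), with the 95% interval of the median over peaks and the number of peaks. Both series descend from above 0 in the lowest range to −0.72 and −0.49 in the highest.

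In CCNG1, all 12 shared peaks were lower with AVJ16, 7 of them by more than 0.5, with a median of −0.63 and a range from −1.53 to −0.06. Its lowest DMSO value was 4.00. Over all shared peaks the median difference was −0.28 at DMSO values from 4 to 4.5 (34.5% lower by more than 0.5). At 4.5 or more it was −0.49 (49.2%). The most enriched DMSO peak of CCNG1, printed above, was 5.81 with DMSO and 4.49 with AVJ16. The largest difference stood at the stop codon, where a peak of 20 nt was 5.68 with DMSO and its partner 4.15 with AVJ16. That partner also served the touching DMSO peak beside it, at a difference of −0.64. The peak of 20 nt overlapped another AVJ16 peak too, at 4.38, so its difference depends on where each list split the run. In CDK6, 10 of 23 shared peaks were lower by more than 0.5 and none was higher by more than 0.5 (highest 0.25), and the median was −0.39. By run, the medians were −0.55 in the run nearest the stop codon, 0.13 at chr7:92609820-92610610, −0.79 at chr7:92607839-92608253 and −0.43 in the run nearest the 3′ end. In CCND2, 4 of 13 shared peaks were lower and 2 higher by more than 0.5, and in CCNI 4 of 10 were lower and none higher.

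The members with the greatest differences at any shared peak were RB1, CCNG1 and CDK8 on the lower side and CDKN1A, CDK19 and CCND2 on the higher. The RB1 peak is the one printed above, at 4.90 with DMSO and 3.36 with AVJ16. At the CDK8 peak the values were 4.45 and 3.17. On the higher side the values were 3.54 and 4.73 in CDKN1A, 3.37 and 4.28 in CDK19, and 3.57 and 4.44 in CCND2. Their middle sequences are set side by side, the lower ones first.
CCNG1, chr5:163442549-163442568, plus strand: cugaaauggucccuuaacug
CDK8, chr13:26404115-26404144, plus strand: aaugcugcagggcugacugugcagcucucu
CDKN1A, chr6:36686266-36686295, plus strand: uggcacuuugaaggggccucaccgaguggg
CDK19, chr6:110614227-110614256, minus strand: uucagCAUuucuuugaaggauuuccuggug
CCND2, chr12:4302465-4302494, plus strand: ucuuuccccuccccuggCAUggacaccuug
In CDKN1A both directions occurred within a single 3′UTR. The peak at chr6:36686261-36686301 was higher by 1.19 with AVJ16, and the values at chr6:36686781-36686840 were 5.19 with DMSO and 3.95 with AVJ16. CDK19 likewise held a peak at −1.17, at chr6:110612371-110612428, beside its higher one at 0.90. E2F5 ranged from −0.66 to 0.83 over 3 shared peaks, and AURKA from −0.95 to 0.51 over 3, although its outermost values came from touching DMSO peaks that share 1 AVJ16 partner.

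By gene, the most enriched peak was lower with AVJ16 in 21 of the 28 members bound in both lists and higher in 7. The peaks compared can lie at different sites of a gene, so this is not a difference at a single peak. In RB1 the best DMSO peak lay in the 3′UTR and the best AVJ16 peak in coding sequence. CDK6 counts as higher, although its best DMSO peak (5.26) had a difference of −0.84 at its own partner. The difference between best peaks passed 0.5 downwards in 8 (CCND2, CCND3, CDKN2C, RB1, E2F7, AURKA, CDK8 and CCNG1), beside 23.8% of all genes bound in both lists. It passed 0.5 upwards in CCNK alone (3.31 with DMSO, 3.93 with AVJ16), beside 13.2% of all such genes. The median over members was −0.40, and −0.10 over all genes, of which 57.4% were lower. CDKN2C had the lowest difference, −1.24. The members whose best peak was higher were CDK6, CDKN1C, CCNK, CCNJ, CCNY, CDK14 and CDK16, by 0.016 in CDK14 to 0.63 in CCNK. By role, the median over shared peaks was −0.33 for the G1 cyclins and kinases (15 of 41 lower and 2 higher by more than 0.5), −0.34 for pocket proteins, E2F and DP (5 of 13 and 1), −0.23 for CDK inhibitors (3 of 9 and 2), −0.22 for the other cyclins and CDKs (11 of 34 and 1) and −0.06 for the transcriptional cyclins and CDKs (2 of 9 and 2). Over all shared peaks, 20.1% were lower and 12.6% higher by more than 0.5. These role values rest on few genes. In the G1 role, CDK6 held 23 shared peaks with 10 lower, and CCND2 13 with 4 lower. In the role of other cyclins and CDKs, CCNG1 held 12 with 7 lower, and CCNI 10 with 4 lower.

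Known microRNA seed matches lay under a few of the peaks. The microRNAs searched were let-7a, miR-16, miR-34a and miR-17, which are known regulators of cell-cycle genes; their mature sequences are from RefSeq and the seed (bases 2 to 8) is in capitals.
let-7a-5p: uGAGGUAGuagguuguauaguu
miR-16-5p: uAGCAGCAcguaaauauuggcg
miR-34a-5p: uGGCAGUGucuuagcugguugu
miR-17-5p: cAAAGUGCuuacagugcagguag
Each 3′UTR peak was widened by 25 nt on both sides and searched on the transcribed strand for the complement of the seed. The sites found with DMSO inside a member peak follow, with the match in capitals.
E2F6, let-7a match, chr2:11445443-11445471, minus strand: ccuagcuguuuCUACCUCauuggguaagu
CCND1, miR-16 match, chr11:69653304-69653332, plus strand: uucacauuguuUGCUGCUauuggaggauc
E2F7, miR-16 match, chr12:77023240-77023268, minus strand: agcagccuaacUGCUGCUucucaaauaac
CDK6, miR-34a match, chr7:92614035-92614063, minus strand: uuucugccacaCACUGCCuuguuggcaaa
CDKN1A, miR-17 match, chr6:36686257-36686285, plus strand: guaaacagaugGCACUUUgaaggggccuc
The CDKN1A match lies in the peak with the greatest difference upwards, and the CDK6 match in a peak that was 5.24 with DMSO and 4.52 with AVJ16. The CCND1 peak was 3.07 and 3.03, and the E2F7 peak 3.64 and 3.07. The E2F6 peak, at 3.36 with DMSO, had no partner. A second CDK6 match, in the flank of the peak at chr7:92605976-92606034, lies at chr7:92605942-92605970, and in WEE1 a miR-16 match was found under an AVJ16 peak at 3.63. A miR-34a match also lay in the flank of a CCNE2 peak with AVJ16, at 3.52. With DMSO, the shares of member 3′UTR peaks with a match were 0.833% beside 0.943% for let-7a (CUACCUC), 1.67% beside 2.26% for miR-16 (UGCUGCU), 1.67% beside 1.36% for miR-34a (CACUGCC) and 0.833% beside 1.51% for miR-17 (GCACUUU), each set beside all 3′UTR peaks. With AVJ16 they were 0 of 107 beside 0.814% for let-7a (interval up to 3.47%), 2.80% beside 2.15% for miR-16, 3.74% (4 of 107 peaks, interval 1.46 to 9.22%) beside 1.50% for miR-34a and 0.935% beside 1.45% for miR-17. Each of these 4 counts with AVJ16 is 4 peaks or fewer. The miR-34a count with AVJ16 holds the CDK6 site at chr7:92614035-92614063 more than once, since adjacent widened peaks both reach it. These matches are descriptions of letters and not measured sites of microRNA binding.

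Other sequence features were searched in the same windows. With DMSO, CAU occurred in 108 of the 120 widened 3′UTR peaks of members (90.0%, beside 89.9% of all 3′UTR peaks), GGAC, the core of a frequent m6A context, in 26 (21.7%, beside 23.1%), AUUUA, the core of AU-rich elements, in 23 (19.2%, beside 22.0%) and UGUANAUA, the Pumilio motif, in 4 (3.33%, beside 2.91%), all 4 in CDK19 and CDKN1A. With AVJ16, CAU occurred in 90.7% of 107 member peaks (beside 88.8% of all 3′UTR peaks), GGAC in 19.6% (interval 13.2 to 28.2%, beside 23.1%), AUUUA in 14.02% (interval 8.68 to 21.9%, beside 19.2%) and UGUANAUA in 3.74% (beside 2.49%). In both lists the UGUANAUA of CDK19 within chr6:110612373-110612402 was reached by adjacent widened peaks and is counted for each. The DMSO peaks of members were 25.7% A, 22.8% C, 18.9% G and 32.6% U, and all 3′UTR peaks 26.7%, 23.2%, 18.6% and 31.5%. The centres of member 3′UTR peaks lay at a median of 43.7% of the 3′UTR with DMSO and 42.2% with AVJ16, and those of other protein-coding genes at 42.4 and 42.2%.

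A further 93 genes of the cell cycle, such as the MCM helicase subunits, cohesin, the anaphase-promoting complex and the spindle checkpoint, were bound in 37 (39.8%) with DMSO and in 30 (32.3%) with AVJ16, 28 of them in both. Of all protein-coding genes, 25.8% were bound with DMSO and 23.2% with AVJ16. The 93 genes held 142 and 99 peaks. Of their 67 shared peaks, 14 were lower by more than 0.5 (20.9%, beside 20.1% of all shared peaks). Another 6 were higher by more than 0.5 (8.96%, beside 12.6%). The median difference was −0.09 (95% interval −0.28 to 0.01), and −0.06 over all shared peaks. SMC1A, a cohesin subunit, had the most DMSO peaks, 12, with 13 under AVJ16. The best value of MAD2L1, a spindle checkpoint gene, was 4.16 with DMSO and 5.18 with AVJ16.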

How the data were processed

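eCLIP was performed by the authors on H1299 cells (ultraviolet light of 254 nm, 400 mJ/cm2). Per the labels, all samples came from 1 thaw of cells in 2 preparation batches, which the merged lists cannot separate. By the study's methods, reads were mapped with STAR after repeat-mapping reads were discarded, duplicates were removed, peaks were called with CLIPper and normalised to input, and the build is hg38 per the submitters' processing notes. The deposited lists give for each peak a −log10 p, with an upper limit of 400, and a log2 fold enrichment over input. All listed log2 values were 3 or more, an 8-fold enrichment. How replicates were merged is not given in the sources used here.

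Peaks were assigned with bedtools 2.31.1 and Python 3.11.15 to GENCODE release 44 genes on the same strand, in the order CDS, 3′UTR (which starts with the stop codon), 5′UTR, noncoding exon and intron. For a DMSO peak the AVJ16 peak with the longest overlap was taken as its partner. The limit of 0.5 was taken from the study, which also required a significant interaction in an analysis of variance. Here the limit was used alone, on merged peaks whose bounds differ between lists. The counts are therefore not comparable with the differential peaks of the study. Pairing and assignment were tested on simulated data. Intervals are Wilson's for shares and order statistics for medians, at 95%, and cover counting error only. No columns of other samples were found (0).

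The members, roles, motifs and microRNAs were chosen with earlier results of these data known. Every member is named. Those in detail are, in each role, the members with the most DMSO peaks and with the highest enrichment, the 3 with the greatest difference in either direction at a shared peak and those with a peak in 1 list. No sequence is printed for CCNE2 and E2F5. Alternatives were stricter thresholds, joined peaks, other region and overlap rules, each peak used once, pairing from the AVJ16 peaks and centred differences.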

Additional observations from a re-analysis of the deposited data

How the results depend on the processing

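Alternatives were run for the counts of bound genes and of peaks, the 3′UTR and partner shares and the differences at shared member peaks. Values by gene, by role and by range of enrichment, best peaks, motifs and positions were not recomputed. The median difference at shared member peaks stayed below 0, and lay between −0.21 and −0.48 under every alternative in which it was recomputed (it was not for joined peaks). With peaks kept from a log2 enrichment of 4 upwards, 19 members were bound with DMSO, 12 with AVJ16 and 12 in both, with 58 and 35 peaks, of which 82.8 and 80.0% lay in 3′UTRs. Then 29 of the 58 DMSO peaks (50%) and 82.9% of AVJ16 member peaks had a partner, the median difference was −0.48, 14 shared peaks were lower and 0 higher by more than 0.5, and 12 and 6 of the other cell-cycle genes were bound. With a −log10 p of at least 20, 12 and 10 members were bound and 9 in both, with 68 and 59 peaks. Then 77.9 and 93.2% had a partner, 22 shared peaks were lower and 3 higher, and 7 and 5 other genes were bound. Joining touching peaks gave 67.9% of AVJ16 member peaks with a partner. Placing the 3′UTR before CDS raised the 3′UTR shares to 80.4 and 78.0%. Asking for an overlap of 50% of both peaks left 51.8 and 58.0% with a partner, and a limit of 1 left 9 peaks lower and 1 higher. An alternative chosen after seeing the data left out CDK6, CCND2 and CCNG1, which gave 3′UTR shares of 62.8 and 59.1% and 56.6% of DMSO member peaks with a partner. Its median difference was −0.21 (95% interval −0.34 to −0.02). Another chosen then, regions from the canonical transcript of each gene, left the 3′UTR shares within their intervals, since 127 DMSO and 113 AVJ16 peaks then lay in 3′UTRs. The cause of these shifts was not tested beyond what each rule removes. No paired analysis was possible because each list pools its replicates, and for the same reason no replicate could be left out. Depth limits what can be said of genes with peaks near the lowest listed value, and depth is unknown.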
